A study of Homo sapiens with 12 samples.

Results

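The G1/S and DNA replication genes described here are 43 genes that act when a cell commits to S phase and copies its DNA. They were picked by symbol from the expression table, which lists 21574 features, and all 43 were among the 13071 features that passed the filter on low values. The rule uses no measured value, but the genes were chosen with earlier results of these data known. They fall into 9 roles, from origin licensing to cyclins and E2F factors. The data are RNA-seq of MDA-231-LM2, a human breast cancer line derived from MDA-MB-231 by selection for metastasis to lung. Each of 4 groups had 3 libraries. The groups were labelled TMEM216+IGF1, TMEM216, Ctrl+IGF1 and Ctrl, so a cell population (TMEM216 or Ctrl) was crossed with the growth factor IGF1 (added or not). The series' title names the effect of TMEM216 on these cells as its question. TMEM216 is known as a transmembrane protein at the base of cilia. The labels do not say how TMEM216 was altered, how the Ctrl cells were made, how much IGF1 was given or for how long, or whether a population is a single clone. Nor do they say whether replicates were separate cultures, so a p-value here reflects only how far the libraries differ from each other, possibly for technical reasons.

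Origins of replication are prepared in G1. ORC recruits CDC6 and CDT1, which load the MCM2 to MCM7 ring onto DNA in an inactive form. Cyclin-dependent and DBF4-dependent kinases then add CDC45 and the GINS complex, and the active helicase unwinds DNA for the polymerases, the PCNA clamp and the enzymes that join Okazaki fragments. Many of these genes are transcribed by E2F factors, which RB family proteins hold in check until cyclin D with CDK4 or CDK6 and cyclin E with CDK2 phosphorylate them. IGF1 signals through IGF1R and is known as a mitogen of breast epithelial and breast cancer cells.

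TMEM216 transcript was 219 ± 29.2 TPM in the 6 libraries labelled TMEM216, against 26.8 ± 2.68 TPM in the 6 labelled Ctrl (SD, n = 6 each), 8.15-fold higher. TPM is a transcript abundance scaled by transcript length and to a fixed total per library, so sequencing depth is unknown. Markers of the line were present in every library, with VIM between 5755 and 7272 TPM. The luminal markers ESR1, PGR and CDH1, the leukocyte markers PTPRC and CD3E and the fibroblast markers DCN and LUM did not exceed 0.204 TPM in any library, while CD68 (140.0 to 212 TPM), EPCAM (11.9 to 15.7 TPM) and GATA3 (5.81 to 8.77 TPM) were detected in all. LYZ, CD79A and COL3A1 did not exceed 0.800 TPM, and PDGFRB was between 0.704 and 1.29 TPM. The endothelial marker PECAM1 was between 0.646 and 2.15 TPM and was higher in TMEM216 libraries on average (log2 difference 0.38, limma adjusted p = 0.044), while VWF and CDH5 stayed at or below 0.107 TPM. KDR, the other endothelial marker that passed the filter, differed by -0.019 on the same average and was not called. Split by IGF1, PECAM1 differed by 0.675 with it, where it was called, and by 0.0916 without it, where it was not. KDR differed by 0.217 with IGF1 and by -0.255 without it, and was called in neither. Summed over the 4 endothelial markers, the level was 2.61 to 4.24 TPM in TMEM216 libraries and 2.00 to 3.76 TPM in Ctrl libraries.

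A pair of libraries lay lowest by the median of these genes, and they are called the low libraries below. Measured from each gene's own mean over the 12 libraries, the median of the 43 genes was -0.20 on the log2(TPM + 1) scale in Ctrl+IGF1 replicate 3 and -0.11 in TMEM216 replicate 1. In the other 10 libraries it lay between -0.041 and 0.091. TMEM216 replicate 1 was less distinct by another measure, with 13 of the 43 genes above their own mean, as in Ctrl+IGF1 replicate 1. Ctrl+IGF1 replicate 3 had 1 of the 43 genes above its own mean, and it was the lowest library for 24 of them (55.8%), against 37% of all tested features. Over all tested features the median deviation was -0.16 in that library and -0.049 in TMEM216 replicate 1. Ribosomal protein genes took 16.9% of TPM in Ctrl+IGF1 replicate 3 and 14.5% in TMEM216 replicate 1, and 12.4% to 14.4% in the others. The part of these shifts in the comparisons was not tested, and results are given below also without both libraries where that changes them. The pair was picked by the values of these same genes. Leaving it out therefore raises the level of the 43 genes in Ctrl+IGF1 and in TMEM216 by construction. The shifts seen without both libraries are descriptions and not independent checks.

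**Figure D1:**
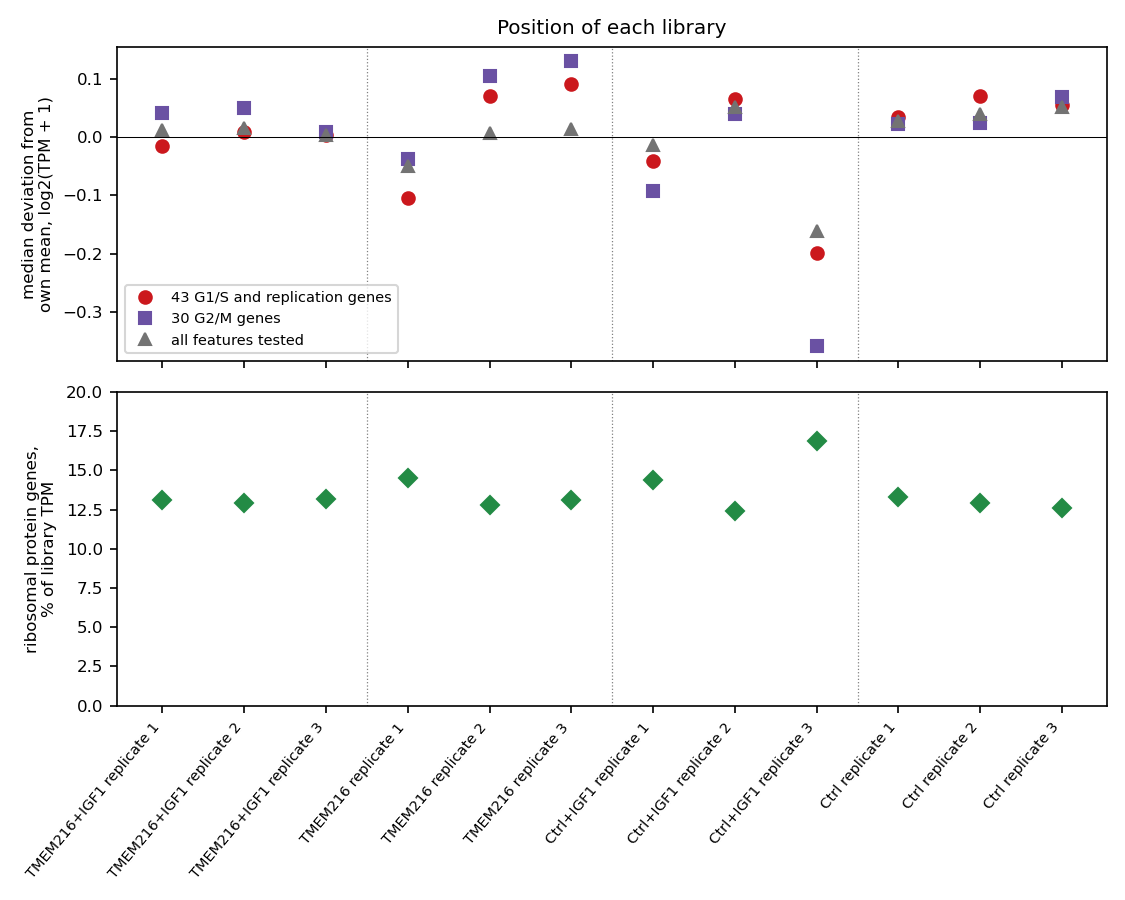
Median deviation (log2 scale, upper panel) of the 43 genes, of 30 G2/M genes and of all tested features from their own means in each library, and the share of TPM in ribosomal protein genes (percent, lower panel). Ctrl+IGF1 replicate 3 lies lowest for all 3 sets and highest for ribosomal protein genes, at 16.9%.

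The 43 genes were abundant, with a median of the mean levels of 85.9 TPM, against 23.5 TPM over all tested features. Together they summed to between 4961 and 6214 TPM per library. Of the 9 roles, nucleotide supply had the highest median, 301 TPM, and the CDC45 and GINS group the lowest, 46.9 TPM. TYMS, thymidylate synthase, led at 543 TPM averaged over the 12 libraries, followed by the clamp PCNA at 509 TPM and CCND1, cyclin D1, at 413 TPM. Another 14 genes were above 100 TPM. At the other end were POLA1 at 16.9 TPM, ORC1 at 16.7 TPM, CCNE1 at 15.5 TPM and E2F2 at 5.66 TPM. Subunits of one complex differed in transcript level: within the MCM2 to MCM7 ring, MCM3 averaged 312 TPM and MCM7 295 TPM, while MCM5 averaged 68.0 TPM and MCM6 63.7 TPM. In the GINS complex the means ran from 31.3 TPM for GINS2 and 31.8 TPM for GINS3 to 66.1 TPM for GINS4.

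Replicates of a group agreed closely for most of these genes. The within-group SD on the log2 scale had a median of 0.113 over the 43 genes, against 0.157 over all tested features. The 43 genes were also more abundant (median 85.9 against 23.5 TPM), and features of like abundance were not compared. Among the 43 genes the SD was smallest for E2F1 (0.0474) and PCNA (0.0524). The widest spread was that of ORC1 (0.305), the largest subunit of the origin recognition complex, and of MCM4 (0.301) and GINS1 (0.27).

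**Figure D2:**
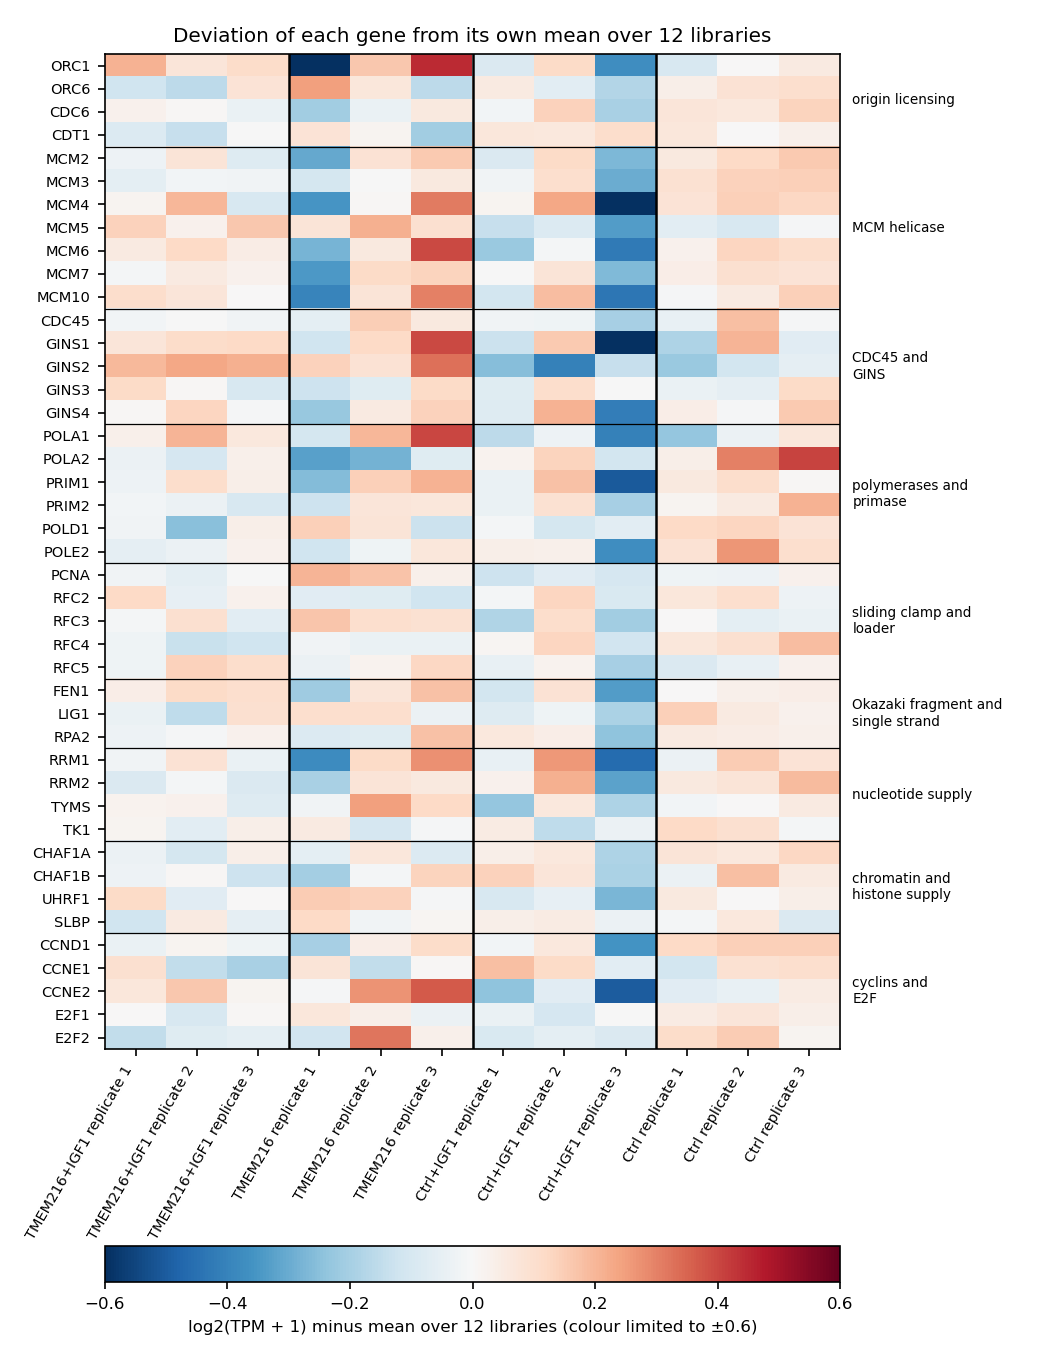
Deviation of each of the 43 genes (rows, grouped by role) from its own mean over 12 libraries (columns), as log2(TPM + 1). The GINS2 and MCM5 rows are split by cell population, while most other rows vary more by single libraries, with Ctrl+IGF1 replicate 3 below the mean for 42 of 43 genes.

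To show the sequence feature these genes are known for, promoters were read from RefSeq (GRCh38.p14), in windows of 250 bases before to 50 bases after each annotated start. Windows were found for 37 of the 43 genes, and not for MCM4, MCM5, GINS4, RPA2, CCND1 and CCNE2. The motif searched, on both strands, was any of the E2F words TTTCCCGC, TTTCGCGC, TTTGCCGC and TTTGGCGC. It occurred in 19 of 37 genes (51.4%), in 18 of 54 other replication and G1/S genes (33.3%), in 3 of 25 G2/M genes (12.0%) and in 681 of 10109 tested genes (6.74%). Among all 35116 windows of this length the share was 3.31%. The element TTTGAA, known as CHR from promoters of G2/M genes, showed another distribution, with 1 of 37 of the replication genes (2.7%), 20 of 25 G2/M genes (80%) and 13.8% of tested genes. CCAAT boxes were found for 54.1% and the GC box GGGCGG for 73.0% of the 37 genes with a window, against 43.8% and 77.3% of tested genes. A match is a run of letters and not evidence of binding, and overlapping words on the 2 strands were each counted.

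Stretches of 80 bases upstream of the start are shown for 6 genes, among them genes described below and the E2F genes themselves. They lie at chr16:85688955-85689034 (GINS2, minus strand), chr2:135876519-135876598 (MCM6, minus), chr20:5126638-5126717 (PCNA, minus), chr11:65261873-65261952 (POLA2, plus), chr20:33686386-33686465 (E2F1, minus) and chr1:23531234-23531313 (E2F2, minus). Each is written 5′ to 3′ on the gene's strand, and capitals mark an E2F word or its reverse complement.
GINS2: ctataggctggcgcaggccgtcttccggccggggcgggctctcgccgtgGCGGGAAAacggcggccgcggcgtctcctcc
MCM6: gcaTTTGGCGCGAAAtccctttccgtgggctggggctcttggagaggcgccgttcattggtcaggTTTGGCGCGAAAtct
PCNA: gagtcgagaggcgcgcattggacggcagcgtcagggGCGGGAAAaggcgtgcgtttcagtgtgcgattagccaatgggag
POLA2: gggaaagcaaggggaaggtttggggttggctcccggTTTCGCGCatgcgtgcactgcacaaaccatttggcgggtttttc
E2F1: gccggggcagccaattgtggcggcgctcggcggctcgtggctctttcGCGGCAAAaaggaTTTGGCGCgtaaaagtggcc
E2F2: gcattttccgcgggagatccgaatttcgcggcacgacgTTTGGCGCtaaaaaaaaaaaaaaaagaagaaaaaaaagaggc
In MCM6 each capital run holds 2 overlapping words, 1 per strand, so the stretch has 4 matches, the most of any gene in the set. GINS2 and PCNA carry the same word, TTTCCCGC, on the strand opposite the gene, so it is printed as its reverse complement. The median difference between TMEM216 and Ctrl cells, averaged over IGF1, was -0.0045 for the 19 genes with a word and -0.017 for the 18 without, both on the log2 scale. The values ran from -0.26 to 0.40 with a word and from -0.13 to 0.13 without. MCM5 and CCNE2, at 0.24 and 0.29 in this comparison, had no window and are in neither group. Whether larger differences go with a word was therefore not tested.

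**Figure D3:**
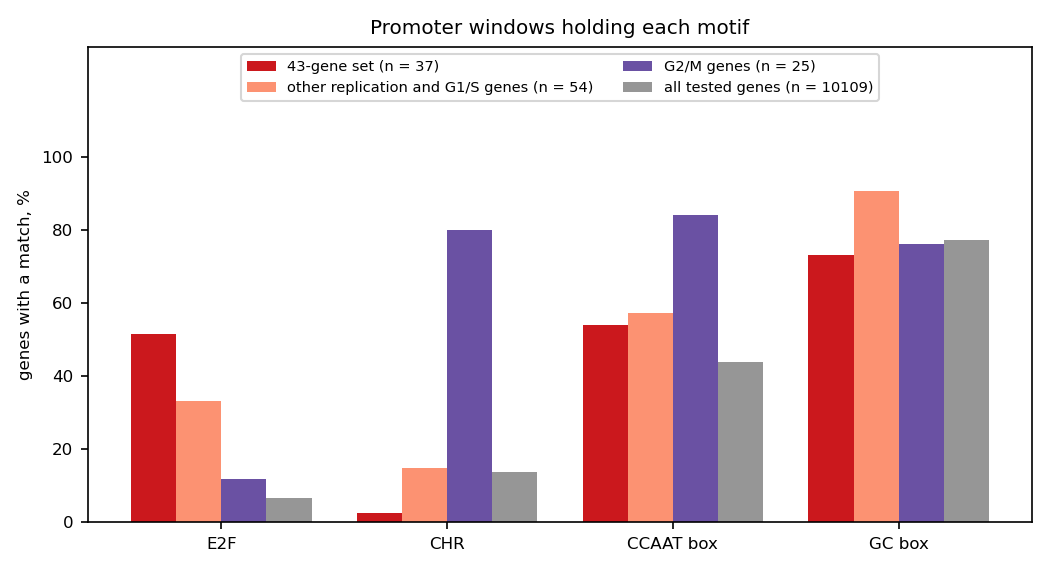
Share of genes (percent) whose promoter window holds each motif, for the 43-gene set (37 with a window), other replication and G1/S genes, G2/M genes and all tested genes. The E2F bar of the 43-gene set stands at 51.4% and its CHR bar at 2.7%, against 12.0% and 80% for G2/M genes.

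The main comparison set the 6 TMEM216 libraries against the 6 Ctrl libraries, averaged over IGF1. Of the 43 genes, 2 passed the threshold, both higher in TMEM216 cells: GINS2, a subunit of the GINS complex, and MCM5, a subunit of the MCM ring. Both belong to the CMG helicase, the assembly of CDC45, MCM2 to MCM7 and GINS that unwinds DNA at the fork. Of all tested features 2.00% were called higher and 5.22% in either direction, so a count of 2 in 43 is of the order of the background. The 43 genes as a set were centred near 0. Their median difference was -0.0033, against -0.00054 for all tested features, with 21 positive and 22 negative. All tested features split into 6517 positive and 6554 negative. In bulk RNA, fewer cells in a phase of the cycle and less RNA per cell cannot be told apart.

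**Figure D4:**
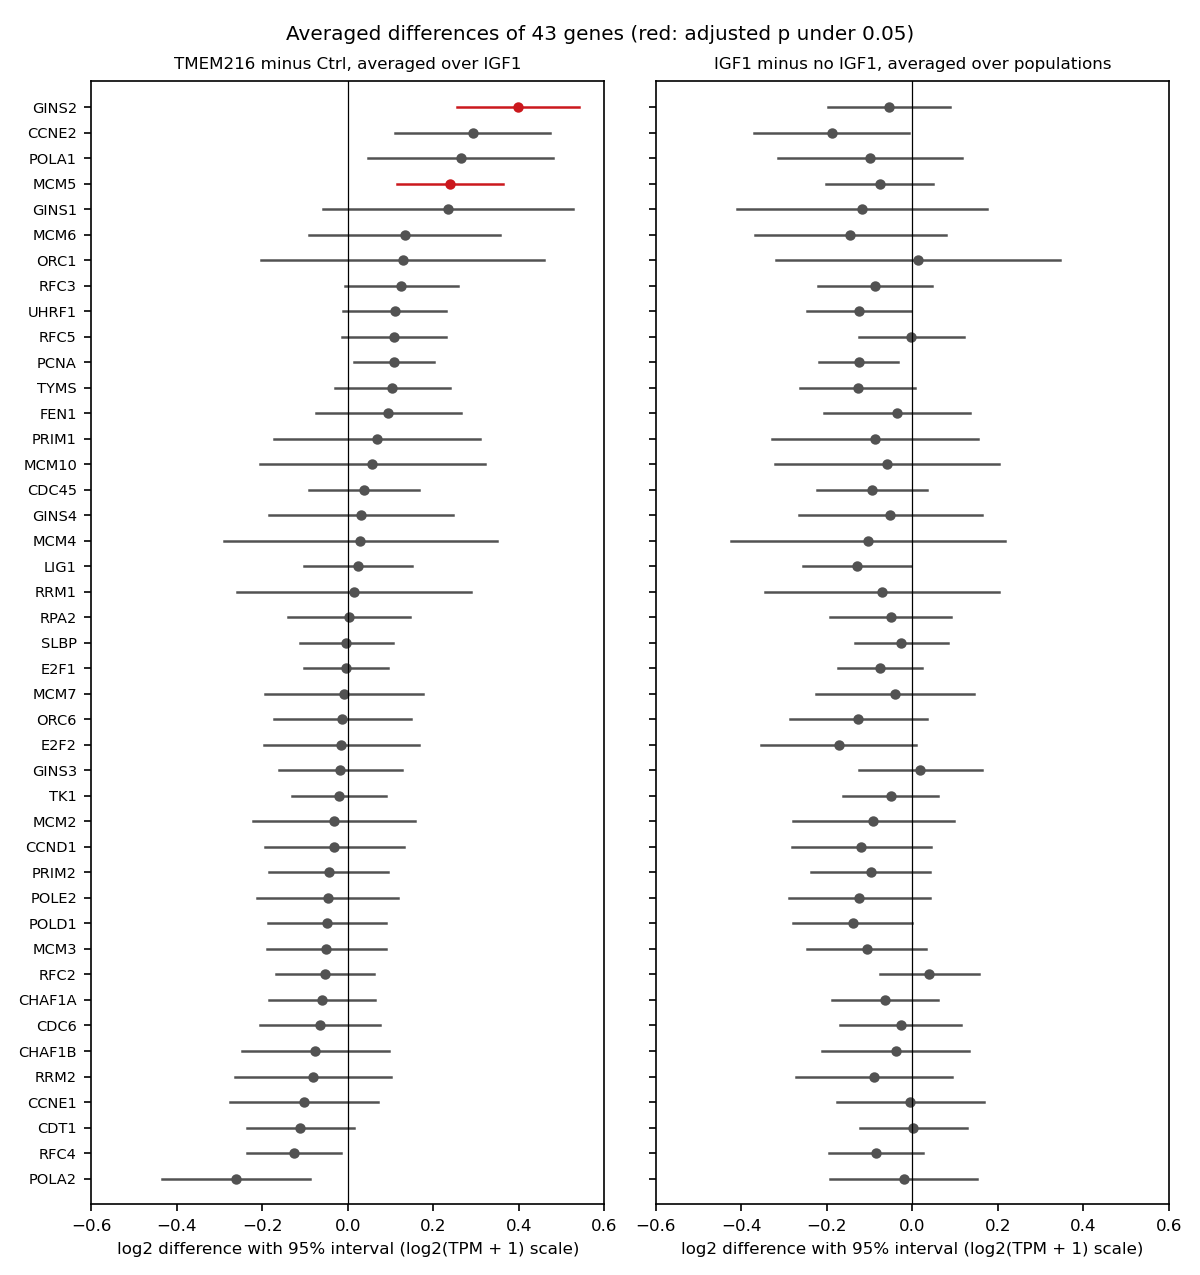
Fitted log2 differences with 95% intervals for the 43 genes, ordered by the left panel: TMEM216 minus Ctrl averaged over IGF1 (left) and IGF1 minus no IGF1 averaged over cell populations (right). GINS2 and MCM5 (red, adjusted p under 0.05) are the 2 genes past the threshold on the left, and none passed on the right.

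GINS2 (ENSG00000131153) was at 35.5, 36.5 and 36.1 TPM in TMEM216+IGF1, at 34.2, 32.9 and 39.2 TPM in TMEM216, at 25.8, 23.1 and 28.0 TPM in Ctrl+IGF1 and at 26.3, 28.6 and 29.7 TPM in Ctrl libraries. Every TMEM216 library was above every Ctrl library. The means were 35.7 ± 2.14 TPM in TMEM216 and 26.9 ± 2.37 TPM in Ctrl cells (SD, n = 6 each). The averaged log2 difference was 0.40 (SE 0.066, 95% interval 0.256 to 0.541, limma adjusted p = 0.00464). It stayed called in all 20 alternative fits, with values between 0.362 and 0.442. The gene overlaps GSE1 on the opposite strand by 7 bases.

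MCM5 (ENSG00000100297) was at 74.6, 68.9 and 75.8 TPM in TMEM216+IGF1, at 71.6, 78.6 and 72.4 TPM in TMEM216, at 61.4, 63.9 and 53.4 TPM in Ctrl+IGF1 and at 64.8, 63.3 and 67.4 TPM in Ctrl libraries. Here too the 6 TMEM216 libraries lay above the 6 Ctrl libraries. The means were 73.7 ± 3.42 TPM in TMEM216 and 62.4 ± 4.80 TPM in Ctrl cells (SD, n = 6 each). The averaged log2 difference was 0.24 (SE 0.057, 95% interval 0.114 to 0.364, limma adjusted p = 0.0328). This call was less stable. It held in 12 of 20 alternatives and was lost with the replicate block and without any 1 of Ctrl replicates 1, 2 and 3, Ctrl+IGF1 replicate 1, TMEM216 replicate 2 or TMEM216+IGF1 replicates 1 and 3, while the value stayed between 0.201 and 0.265. Groups of 6 without overlap, higher in TMEM216, occurred for 1.97% of tested features, and among the 43 genes for these 2. Groups without overlap in the other direction occurred for 0 of the 43 genes, against 2.42% of tested features.

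**Figure D5:**
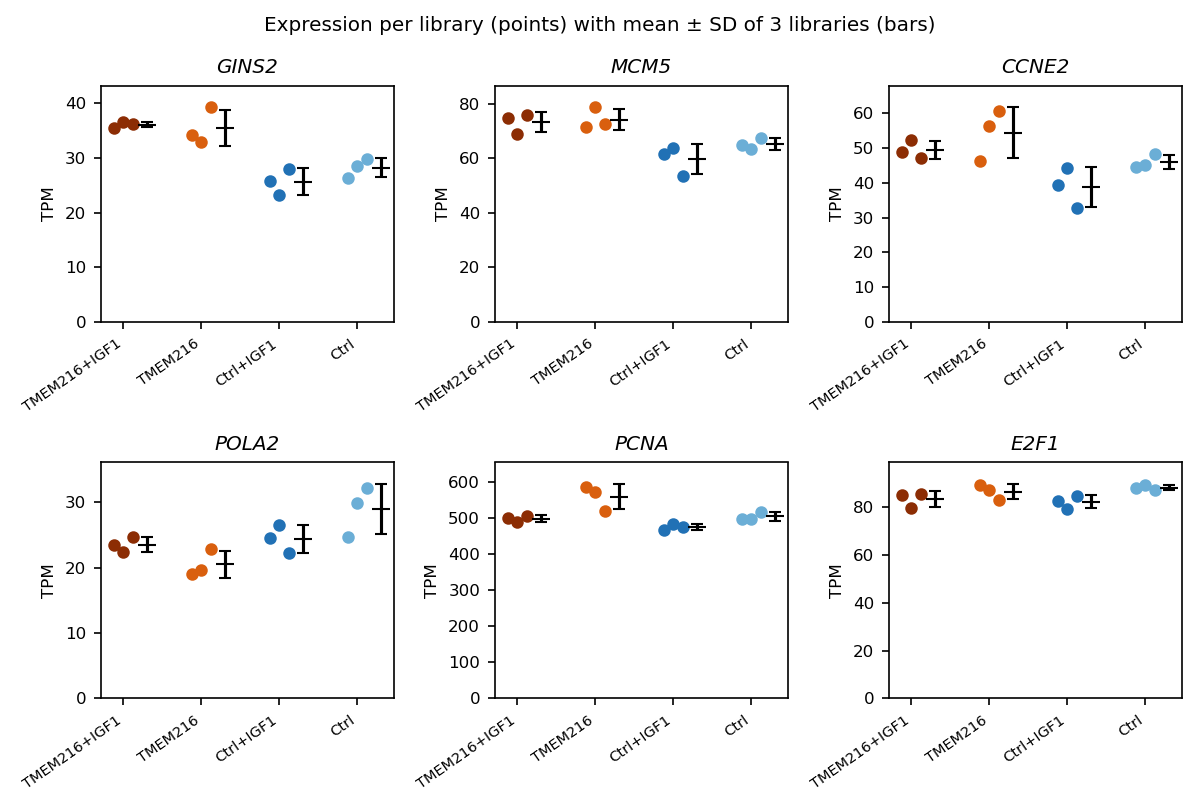
TPM in each library (points) with mean ± SD of 3 libraries (bars) for 6 of the genes in the 4 groups. For GINS2 and MCM5 all TMEM216 points lie above all Ctrl points, whereas CCNE2, POLA2, PCNA and E2F1 overlap between the populations.

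The other CMG subunits did not pass. MCM2 was at 88.7, 95.7 and 85.9 TPM in TMEM216+IGF1, at 73.0, 96.3 and 101 TPM in TMEM216, at 85.2, 98.3 and 75.1 TPM in Ctrl+IGF1 and at 94.4, 98.6 and 101 TPM in Ctrl libraries, and the populations overlapped. MCM6 had an averaged log2 difference of 0.13 (SE 0.10, adjusted p = 0.532), MCM3 of -0.05, MCM4 of 0.03 and MCM7 of -0.01. CDC45, which joins MCM and GINS, was at 0.04, GINS1 at 0.23 (SE 0.13, adjusted p = 0.373) and GINS4 at 0.03. GINS3 was at 34.4, 31.9 and 29.6 TPM in TMEM216+IGF1, at 29, 30.1 and 34.4 TPM in TMEM216, at 30.1, 34.1 and 31.7 TPM in Ctrl+IGF1 and at 30.8, 30.5 and 34.4 TPM in Ctrl libraries, with a difference of -0.02. Across the complex, GINS2 was thus the subunit with the largest fitted difference, and the 3 other GINS subunits overlapped between populations. MCM10, which helps to activate the helicase, had a difference of 0.06.

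The loading factors CDC6 and CDT1 had negative differences that did not pass. CDC6 was at 104, 102 and 98.8 TPM in TMEM216+IGF1, at 88.0, 98.9 and 106 TPM in TMEM216, at 101, 112 and 88.7 TPM in Ctrl+IGF1 and at 107, 106 and 112 TPM in Ctrl libraries (averaged log2 difference -0.07, limma adjusted p = 0.647). CDT1 was at 55.3, 53.0 and 58.4 TPM in TMEM216+IGF1, at 62.1, 59.2 and 50.6 TPM in TMEM216, at 61.4, 61.2 and 63.1 TPM in Ctrl+IGF1 and at 61.4, 58.7 and 59.9 TPM in Ctrl libraries (-0.11, limma adjusted p = 0.312). For CDC6 the TMEM216 libraries lay below the Ctrl libraries without IGF1 and overlapped with it. For CDT1 the 3 TMEM216+IGF1 libraries lay below the 3 Ctrl+IGF1 libraries, while TMEM216 and Ctrl overlapped. ORC1 and ORC6, subunits of the origin recognition complex, had differences of 0.13 and -0.01, each within its SE.

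Polymerase α, which starts DNA chains with primase, showed opposite signs in its subunits. POLA1, the catalytic subunit, was at 17.1, 19.4 and 17.5 TPM in TMEM216+IGF1, at 15.5, 19.3 and 22.4 TPM in TMEM216, at 14.9, 16.3 and 12.4 TPM in Ctrl+IGF1 and at 14.1, 16.3 and 17.6 TPM in Ctrl libraries. Its averaged log2 difference was 0.26 (SE 0.099, limma adjusted p = 0.155). POLA2, the accessory subunit, was at 23.5, 22.4 and 24.6 TPM in TMEM216+IGF1, at 19.0, 19.6 and 22.8 TPM in TMEM216, at 24.5, 26.5 and 22.2 TPM in Ctrl+IGF1 and at 24.7, 29.9 and 32.2 TPM in Ctrl libraries. Its averaged difference was -0.26 (SE 0.079, limma adjusted p = 0.0819). Neither passed, and both overlapped between populations. POLA2 was called lower with quantile normalization, with median-of-ratios scaling and without Ctrl replicate 1. It also shares 43662 bases on the same strand with another annotated gene, ENSG00000285816, which averaged 14.5 TPM, so reads could be split between them. The sum of both was 31.9 to 41.6 TPM in TMEM216 libraries and 31.9 to 47.6 TPM in Ctrl libraries. Without IGF1 the sums were 34.67, 41.56 and 36.41 TPM in TMEM216 and 41.63, 43.36 and 44.07 TPM in Ctrl libraries, without overlap. With IGF1 the sums overlapped, and the lowest Ctrl sum, 31.91 TPM, was in Ctrl+IGF1 replicate 3. POLE2, a subunit of the leading strand polymerase, was at 88.0, 89.2 and 93.2 TPM in TMEM216+IGF1, at 84.1, 89.8 and 96 TPM in TMEM216, at 93.7, 93.6 and 70.4 TPM in Ctrl+IGF1 and at 97.1, 109.9 and 98.1 TPM in Ctrl libraries. Its TMEM216 libraries lay below the Ctrl libraries without IGF1 but not with it. It differed by -0.05, and POLD1, the catalytic subunit of polymerase δ, also by -0.05. The primase subunits PRIM1 and PRIM2 were at 0.07 and -0.04.

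PCNA, the ring that holds polymerases on DNA, was at 500.5, 488 and 506 TPM in TMEM216+IGF1, at 585, 572 and 519 TPM in TMEM216, at 466, 484 and 473 TPM in Ctrl+IGF1 and at 498, 497 and 517 TPM in Ctrl libraries. It was above its matched Ctrl group in every library both with and without IGF1, but the averaged difference was small and did not pass (log2 0.11, SE 0.043, limma adjusted p = 0.176). The loader subunits that place the clamp pointed in different directions. RFC4 was at 209, 194 and 196 TPM in TMEM216+IGF1, at 209.8, 207 and 207 TPM in TMEM216, at 214, 233 and 196 TPM in Ctrl+IGF1 and at 223, 228 and 242 TPM in Ctrl libraries (log2 -0.13, limma adjusted p = 0.182). RFC2 was at 143, 127 and 134 TPM in TMEM216+IGF1, at 125, 125 and 121 TPM in TMEM216, at 130.2, 143 and 123 TPM in Ctrl+IGF1 and at 138, 141 and 128 TPM in Ctrl libraries (log2 -0.05). Without IGF1 both lay below Ctrl in all 3 libraries, and with IGF1 both overlapped. RFC3 and RFC5 had differences of 0.13 and 0.11. Of the Okazaki fragment and single-strand genes, the flap nuclease FEN1 was at 0.09, the ligase LIG1 at 0.02 and the single-strand binding subunit RPA2 at 0.0032. FEN1 shares 4265 bases with FADS2 on the same strand and 166 bases with TMEM258 on the opposite strand. The FEN1 level is uncertain to the extent that reads were shared.

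Nucleotide supply and chromatin genes were close to 0. TYMS was at 548, 551 and 513 TPM in TMEM216+IGF1, at 533, 643 and 588 TPM in TMEM216, at 461, 565 and 476 TPM in Ctrl+IGF1 and at 535, 543 and 562 TPM in Ctrl libraries (log2 0.10, limma adjusted p = 0.393). RRM2, the regulated subunit of ribonucleotide reductase, was at 199, 209.9 and 199.8 TPM in TMEM216+IGF1, at 185, 223 and 221 TPM in TMEM216, at 215, 246 and 169 TPM in Ctrl+IGF1 and at 221, 224 and 242 TPM in Ctrl libraries (log2 -0.08). The populations overlapped for both genes. Its partner RRM1 and the thymidine kinase TK1 were at 0.01 and -0.02. SLBP, which binds histone mRNA, was at 168, 189.8 and 176 TPM in TMEM216+IGF1, at 199, 180.4 and 185 TPM in TMEM216, at 187, 189 and 178 TPM in Ctrl+IGF1 and at 182, 191 and 172 TPM in Ctrl libraries, and the populations overlapped. UHRF1, which helps to copy DNA methylation, was at 0.11, and the histone chaperone subunits CHAF1A and CHAF1B were at -0.06 and -0.08.

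Of the cyclins, CCNE2 came closest to passing. This cyclin E gene was at 49.0, 52.2 and 47.2 TPM in TMEM216+IGF1, at 46.4, 56.3 and 60.5 TPM in TMEM216, at 39.3, 44.4 and 32.7 TPM in Ctrl+IGF1 and at 44.4, 45.2 and 48.3 TPM in Ctrl libraries. With IGF1 the populations did not overlap, and without it they did. The averaged log2 difference was 0.29 (SE 0.083, 95% interval 0.11 to 0.473, limma adjusted p = 0.0657). It passed with quantile normalization, with median-of-ratios scaling, without both low libraries, without Ctrl+IGF1 replicate 2 and without TMEM216 replicate 1, and its value stayed between 0.234 and 0.346. CCNE2 overlaps INTS8 and NDUFAF6 on the opposite strand. The other cyclin E gene, CCNE1, was at 16.6, 13.8 and 13.3 TPM in TMEM216+IGF1, at 16.3, 13.8 and 15.5 TPM in TMEM216, at 17.6, 16.8 and 14.7 TPM in Ctrl+IGF1 and at 14.2, 16.5 and 16.6 TPM in Ctrl libraries (log2 -0.10, limma adjusted p = 0.528). Cyclin D1, which brings CDK4 and CDK6 to RB, did not pass either. CCND1 was at 399, 416 and 404 TPM in TMEM216+IGF1, at 358, 423 and 444 TPM in TMEM216, at 407, 430.0 and 320.1 TPM in Ctrl+IGF1 and at 446, 453 and 454 TPM in Ctrl libraries (log2 -0.03, limma adjusted p = 0.868). Without IGF1 the TMEM216 libraries were all below the Ctrl libraries, and with IGF1 they overlapped.

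Neither E2F gene among the 43, E2F1 or E2F2, passed between the populations. E2F1 was at 85.2, 79.4 and 85.4 TPM in TMEM216+IGF1, at 89.2, 87.2 and 82.9 TPM in TMEM216, at 82.5, 79.2 and 84.8 TPM in Ctrl+IGF1 and at 87.9, 89.3 and 87.1 TPM in Ctrl libraries. The populations overlapped, and the lowest values of each were with IGF1. The averaged log2 difference was -0.0045, with a 95% interval of -0.103 to 0.0936. E2F2, the lowest of the 43 genes, was at 4.98, 5.30 and 5.36 TPM in TMEM216+IGF1, at 5.13, 7.28 and 5.77 TPM in TMEM216, at 5.22, 5.37 and 5.24 TPM in Ctrl+IGF1 and at 6.15, 6.37 and 5.72 TPM in Ctrl libraries. The populations overlapped, with the highest value in TMEM216 replicate 2. The differences of all 43 genes had 95% intervals within 1 log2 unit of 0, and 41 were within 0.5.

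Split by IGF1, the comparison with it added gave 1 called gene and the comparison without it gave none. TMEM216+IGF1 against Ctrl+IGF1 called GINS2 higher, with a log2 difference of 0.48 (SE 0.093, 95% interval 0.278 to 0.683, limma adjusted p = 0.0239). In this comparison 0.918% of tested features were called higher and 1.61% in either direction. That call was lost with quantile normalization, with median-of-ratios scaling, with only the 6 libraries compared, without Ctrl+IGF1 replicate 1 and without any 1 of the 3 TMEM216+IGF1 libraries, and the value stayed between 0.411 and 0.544. The GINS2 difference with IGF1 minus that without it was 0.16 (SE 0.13, 95% interval -0.122 to 0.45, limma adjusted p = 0.754 for the interaction), so the gap between the splits did not pass. MCM5 was next, at 0.29 (SE 0.081, limma adjusted p = 0.106), and was called without Ctrl+IGF1 replicate 2. Differences were positive for 7838 and negative for 5230 of all tested features. The 43 genes had a median of 0.070, against 0.048 for all tested features, with 30 positive and 13 negative. Without both low libraries the median was -0.020, with 18 positive and 25 negative. MCM5, MCM6, GINS2, POLA1, PCNA and CCNE2 were higher without overlap, 6 of 43 against 12.0% of tested features, and CDT1 lower, 1 of 43 against 7.69%.

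TMEM216 against Ctrl without IGF1 called 0 of the 43 genes by limma, where 1.09% of tested features were called. Of those calls 14% were higher, and 32.8% or 32.4% with quantile or median-of-ratios scaling. At an unadjusted p under 0.05, 3 genes were higher (GINS2, PCNA and MCM5) and 1 was lower (POLA2), against 3.17% and 10.0% of tested features. POLA2 came nearest, with a log2 difference of -0.47 (SE 0.11, 95% interval -0.717 to -0.230, adjusted p = 0.0713), and it was called without Ctrl+IGF1 replicate 3. GINS2 was at 0.32 (SE 0.093, limma adjusted p = 0.138). Over all tested features 4969 differences were positive and 8101 negative. The median of the 43 genes was -0.036, against -0.048 for all tested features, with 13 positive and 30 negative. Quantile normalization and median-of-ratios scaling moved that split to 20 and 23 positive. Without both low libraries, of which TMEM216 replicate 1 is in this comparison, 25 were positive and 18 negative, with a median of 0.014. MCM5, GINS2, PCNA and RFC3 were higher without overlap (4 of 43, background 6.30%), and CDC6, MCM3, POLA2, POLE2, RFC2, RFC4 and CCND1 lower (7 of 43, background 15.5%).

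The comparisons of IGF1 with no IGF1 asked whether the growth factor moved these genes, and none of the 43 passed the threshold in either population or on average, by limma. They use the same libraries as the comparisons of TMEM216 with Ctrl and are not independent of them. Averaged over populations, 0.0536% of tested features were called, 0 of them higher and 7 lower, or 1 and 7 with quantile normalization. At an unadjusted p under 0.05, 0 of the 43 genes were higher and 5 lower, against 1.68% and 4.19% of tested features. These were PCNA (log2 -0.13, SE 0.043, adjusted p = 0.707), CCNE2 (-0.19, SE 0.083, adjusted p = 0.828), UHRF1 (-0.13), LIG1 (-0.13) and POLD1 (-0.14). PCNA had 466 to 506 TPM in the 6 libraries with IGF1 and 497 to 585 TPM in the 6 without. CCNE2 had 32.7 to 52.2 TPM with IGF1 and 44.4 to 60.5 TPM without. The ranges of both genes overlapped. Signs were uneven over all tested features, with 4919 positive and 8152 negative. Of the 43 genes 4 were positive and 39 negative, with a median of -0.085, against -0.028 for all tested features. Without both low libraries the median was -0.065, with 38 negative, and with quantile and median-of-ratios scaling 36 and 34 were negative. The 95% intervals of all 43 genes lay within 0.5 log2 units of 0.

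In Ctrl cells, Ctrl+IGF1 against Ctrl called 0 of 43 genes, where 0.0306% of tested features passed. Differences were positive for 3555 and negative for 9515 of all tested features. The median of the 43 genes was -0.14, against -0.088 for all tested features, and 39 of 43 were negative. Leaving out both low libraries, of which Ctrl+IGF1 replicate 3 is in this comparison, brought the median to -0.042 with 28 negative. The unadjusted p was under 0.05 for POLE2 (log2 -0.25), CCND1 (-0.24) and UHRF1 (-0.17), all lower with IGF1, and for 0 genes higher, against 5.67% and 1.22% of tested features. Without both low libraries POLE2 was at -0.12, CCND1 at -0.11 and UHRF1 at -0.11. Groups did not overlap for 11 of the 43 genes, all lower with IGF1, against 11.8% of tested features lower and 2.72% higher. This count includes Ctrl+IGF1 replicate 3 and was not recomputed without it.

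In TMEM216 cells, TMEM216+IGF1 against TMEM216 also called 0 of 43 genes, where 0.0153% of tested features passed. PCNA had the smallest p, with a log2 difference of -0.16 (SE 0.060, unadjusted p = 0.0187, limma adjusted p = 0.91), and all 3 of its TMEM216+IGF1 libraries were below the 3 TMEM216 libraries. It was the only 1 of the 43 genes with an unadjusted p under 0.05, against 1.70% of tested features lower and 3.08% higher. RFC2 was higher without overlap and PCNA lower, 1 of 43 each, against 6.56% and 3.69% of tested features. Over all tested features 7331 differences were positive and 5739 negative. The median of the 43 genes was -0.018, against 0.018 for all tested features, with 18 positive and 25 negative. Without TMEM216 replicate 1 the median was -0.062. Without both low libraries 6 genes were positive and 37 negative, and with either quantile or median-of-ratios scaling 12 were positive and 31 negative. POLA2 had a difference of 0.19 (SE 0.11, limma adjusted p = 1).

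The interaction, the IGF1 difference in TMEM216 cells minus that in Ctrl cells, passed for 0 of 43 genes by limma, where 0.0153% of tested features passed. Of those 2 features 1 was positive and 1 negative, and the 1 left with quantile or median-of-ratios scaling was negative. POLA2 had the smallest p, at log2 0.42 (SE 0.16, 95% interval 0.0796 to 0.768, unadjusted p = 0.0199, adjusted p = 0.754). It was the 1 gene with an unadjusted p under 0.05, against 4.47% of tested features positive and 0.910% negative. All tested features had a median of 0.107, which median-of-ratios scaling moved to 0.0040, and the 43 genes a median of 0.111, which it moved to 0.00071. Of the 43 genes 37 were positive and 6 negative, and of all tested features 9178 were positive and 3893 negative. With median-of-ratios scaling the 43 genes split into 22 positive and 21 negative. With both low libraries left out, 16 were positive and 27 negative, with a median of -0.034. For 14 of the 43 genes the 95% interval reached beyond 0.5 log2 units, so the interaction is the least precise of the comparisons.

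Of 67 other replication and G1/S genes chosen as a wider pathway, 65 were tested, and CDKN2A and CDKN2B were listed at 0 in all 12 libraries. Averaged over IGF1, 3 were higher and 2 lower in TMEM216 cells, 5 of 65 where 5.22% of all tested features were called in either direction, so this count too is of the order of the background. CDKN2C, an inhibitor of CDK4 and CDK6, was at 64.7, 65.5 and 66.9 TPM in TMEM216+IGF1, at 72.1, 73.3 and 70.8 TPM in TMEM216, at 55.7, 58.0 and 52.5 TPM in Ctrl+IGF1 and at 57.2, 56.2 and 52.6 TPM in Ctrl libraries (log2 0.31, SE 0.047, limma adjusted p = 0.00302). SKP2, the ubiquitin ligase subunit that marks CDKN1B for destruction, was at 46.6, 57.1 and 47.1 TPM in TMEM216+IGF1, at 45, 47.4 and 46.6 TPM in TMEM216, at 41.0, 43.1 and 32.3 TPM in Ctrl+IGF1 and at 34.1, 34.4 and 34.2 TPM in Ctrl libraries (log2 0.40, SE 0.077, limma adjusted p = 0.0114). CCND2, cyclin D2, was at 4.93, 4.75 and 5.60 TPM in TMEM216+IGF1, at 5.63, 4.90 and 3.93 TPM in TMEM216, at 7.93, 7.90 and 6.47 TPM in Ctrl+IGF1 and at 8.07, 7.03 and 8.30 TPM in Ctrl libraries (log2 -0.54, SE 0.094, limma adjusted p = 0.00642). All 3 genes separated the 6 TMEM216 from the 6 Ctrl libraries and kept their calls in all 20 alternatives.

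The 2 weaker calls were the third cyclin D gene and a fork protection gene. CCND3 was at 176, 149 and 176 TPM in TMEM216+IGF1, at 173, 164 and 152 TPM in TMEM216, at 187, 204 and 214 TPM in Ctrl+IGF1 and at 201, 181 and 188 TPM in Ctrl libraries (log2 -0.25, limma adjusted p = 0.0393). TIPIN, which works with TIMELESS at the fork, was at 43.8, 45.3 and 41.9 TPM in TMEM216+IGF1, at 45, 45.1 and 42.6 TPM in TMEM216, at 37.1, 42.0 and 35.8 TPM in Ctrl+IGF1 and at 35.7, 38.6 and 37.4 TPM in Ctrl libraries (log2 0.22, limma adjusted p = 0.0433). Each of these 2 calls was lost in 14 of 20 alternatives, among them the fits without any 1 of the 3 Ctrl libraries. CCND2 and CCND3 were thus both lower in TMEM216 cells by this test, while CCND1, the most abundant cyclin D gene, overlapped between populations.

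The kinases and the inhibitors of the CIP/KIP family did not pass between populations. CDK2 was at 179 to 203 TPM in TMEM216 libraries and 170.3 to 224 TPM in Ctrl libraries (averaged log2 difference -0.10), so the ranges overlapped. CDK4 was at 272 to 376 TPM in TMEM216 and 327 to 356 TPM in Ctrl libraries (-0.01), and CDK6 at 15.3 to 33.9 TPM in TMEM216 and 15.4 to 26.3 TPM in Ctrl libraries (0.08). CDKN1A, which encodes p21, was at 83.4, 92.7 and 77.4 TPM in TMEM216+IGF1, at 55.3, 67.4 and 76.4 TPM in TMEM216, at 89.3, 88.0 and 80.2 TPM in Ctrl+IGF1 and at 76.8, 83.8 and 81.5 TPM in Ctrl libraries. Its difference was -0.16 for TMEM216 against Ctrl (limma adjusted p = 0.292) and 0.22 for IGF1 against none (limma adjusted p = 0.729). CDKN1B, which encodes p27, differed by -0.04 between populations. Without IGF1, CDKN2C was the 1 called gene of the 65 (log2 0.38, SE 0.066, limma adjusted p = 0.0206), a call lost with only the 6 libraries compared, with the replicate block, without any 1 Ctrl library and without TMEM216 replicate 2. With IGF1, for IGF1 itself and for the interaction, 0 of the 65 were called.

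G2/M genes, which peak later in the cycle, were set beside the replication genes. Of 30 tested, 0 were called in any of the 7 comparisons by limma. Their median difference for TMEM216 against Ctrl, averaged over IGF1, was 0.090, with 23 positive and 7 negative, against -0.0033 for the 43 replication genes and -0.00054 for all tested features. At an unadjusted p under 0.05, 6 of the 30 were higher and 0 lower, against 8.93% and 11.1% of tested features. MKI67, the Ki-67 proliferation antigen, was at 123, 122 and 116 TPM in TMEM216+IGF1, at 98.3, 122 and 126 TPM in TMEM216, at 97.7, 118 and 82.9 TPM in Ctrl+IGF1 and at 104, 108 and 109 TPM in Ctrl libraries (log2 0.19, limma adjusted p = 0.228). CCNB1, cyclin B1, differed by 0.07. Without both low libraries the median of the 30 genes was 0.070. For IGF1 against none it was -0.096, beside -0.085 for the replication genes, and Ctrl+IGF1 replicate 3 was the lowest library for both lists, at -0.36 and -0.20.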

How the data were processed

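Expression was measured by RNA-seq in 12 libraries, 3 in each of 4 groups, from a TruSeq kit per the labels' protocols. The authors deposited TPM per gene, and HISAT2, StringTie and RSEM were used per the submitters' processing notes, without versions. Genome build, annotation and strand setting were not given in the sources used here. TPM holds no counts, so depth is unknown, no counting interval is given, and a value listed at 0 can be a failed estimate.

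From the TPM, log2(TPM + 1) was computed without further scaling, which understates the change of low genes. The filter kept 13071 of 21574 features, those reaching a TPM of 1 in at least 3 libraries. One limma fit (version 3.58.1 in R 4.3.3) of the 4 groups, with eBayes moderation that follows the mean-variance trend, gave 7 two-sided contrasts. Adjusted p is Benjamini-Hochberg over the 13071 features, with a threshold of 0.05. SE and 95% intervals are limma's. The fit was checked on simulated data with independent noise for each gene and library. Shifts of whole libraries were not part of that check. The members and all gene lists were chosen with earlier results of these data known, so lists are described by counts and medians and get no test.

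Values in every library are given for members past the threshold, for the 2 with the smallest p in each direction of each comparison, and for 11 that were always named. Of other lists, called genes and CDKN1A, CDKN1B, MKI67, CCNB1, CDK2, CDK4 and CDK6 are given. The values of POLA1 were added after they were seen. Overlap of the 43 genes with other tested genes was looked up in GENCODE v29: 13 overlap another tested gene, 11 of them on the opposite strand and 4 on the same strand, so reads may be shared. RefSeq supplied the promoter sequences. The settings tried instead were quantile normalization, scaling by median of ratios, a pseudocount of 0.1, a filter at TPM 5, dropping the filter, no trend, only the 6 libraries compared, a replicate block, and leaving out each library or both low libraries. Plots used matplotlib 3.10.9 (Python 3.11.15).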

Additional observations from a re-analysis of the deposited data

How the results depend on the processing

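Members called, features called and member medians were recomputed under each alternative, and the cause of each change was not tested. The low libraries were picked by their member medians, so the direction in which leaving them out moves those medians was largely set beforehand. For TMEM216 minus Ctrl without IGF1, 143 features were called, 49 with only the 6 libraries compared and 288 without both low libraries. For TMEM216+IGF1 minus Ctrl+IGF1, 0 members instead of 1 were called with quantile normalization, median-of-ratios scaling or only the 6 libraries (49 features instead of 211), and the member median was -0.0203 without both low libraries. Averaged over IGF1, 4 members instead of 2 were called with quantile normalization and 4 with median-of-ratios scaling (GINS2, MCM5, CCNE2 and POLA2), and 1061 features instead of 682 without both low libraries. For Ctrl+IGF1 minus Ctrl, 4 features were called, against 0 with a pseudocount of 0.1 or a minimum of 5, 2 with no filter or quantile normalization and 1 with only the 6 libraries, and the member median was -0.047 with median-of-ratios scaling and -0.0418 without both low libraries. For TMEM216+IGF1 minus TMEM216, 2 features were called, against 7, 6 and 4 with a pseudocount of 0.1, no filter and a minimum of 5, and 1 with median-of-ratios scaling or without both low libraries. For IGF1 averaged over populations, 7 features were called and 4 without both low libraries. For the interaction, 2 features were called, against 1 with a pseudocount of 0.1, a minimum of 5, either scaling or without both low libraries, and the member median was 0.000714 with median-of-ratios scaling and -0.0338 without both low libraries.

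Same-numbered libraries did not deviate together (correlations -0.286 to 0.165, with 4 of 12 libraries closest to their own number). The labels do not say whether equal numbers mark paired libraries, and with 3 libraries a group these correlations cannot settle it. With the replicate block, 77 features were called for TMEM216 without IGF1, 140 with IGF1, 1 for each IGF1 comparison and 1 for the interaction, and 1 member (GINS2) for TMEM216 averaged over IGF1.

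Leaving out 1 library at a time gave, for members called, features called and member median in turn, 0 to 1, 43 to 273 and -0.0957 to 0.0137 for TMEM216 without IGF1, 0 to 2, 84 to 462 and -0.0203 to 0.126 with IGF1, and 1 to 3, 392 to 906 and -0.0285 to 0.0333 averaged. The ranges were 0 to 0, 1 to 5 and -0.206 to -0.0418 for IGF1 in Ctrl, 0 to 0, 1 to 6 and -0.0624 to 0.0515 in TMEM216, 0 to 0, 1 to 11 and -0.127 to -0.0381 averaged, and 0 to 0, 1 to 3 and 0.0279 to 0.157 for the interaction. Of named genes, CCNE1 for IGF1 in Ctrl, 0.05 in the full fit and -0.0182 to 0.121 with 1 library left out, was -0.0182 without Ctrl replicate 1 and -0.000378 without Ctrl+IGF1 replicate 1. GINS3 for IGF1 averaged, 0.02 in the full fit and -0.00757 to 0.0547 with 1 library left out, was -0.00244 without both low libraries and -0.00434, -0.00524 and -0.00757 without Ctrl+IGF1 replicate 2, TMEM216 replicate 1 and TMEM216+IGF1 replicate 1. Neither gene was called in any fit. With 3 libraries a group, the median half-width of the 95% interval was 0.204 for single comparisons, 0.144 for averaged ones and 0.288 for the interaction on the log2 scale, and narrower or wider for single genes.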
